A study of Mus musculus with 2 samples.

Results

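In the gastrocnemius muscle of young mice, 432 transcript models of 1 long-read RNA library and 393 of a second lacked 3′ splices. Each followed the splices of a longer model of its gene from the 5′ side and lacked 1 or more of the last ones. Some ended early, and others ran unspliced into the last exon of the longer model. These incomplete prefix models were taken by their deposited class (incomplete splice match, prefix subtype) and by a minimum of 2 reads in the library, and they were 0.545% of 79323 models in replicate 1 and 0.434% of 90517 in replicate 2. They lay in 322 genes in each library and in 517 genes over both. They were chosen by 2 deposited values, the class and the read count, so their class, abundance and number are descriptions and carry no test. Just inside it stood 205 and 203 models with exactly 2 reads, and just outside it 1487 and 1231 models with 1 read. Each model's 3′ end was then compared with the annotated models of its gene, which shows how many exons are missing, whether the end lies in an intron, and whether a prefix model of the other library ends within 50 bases of it.

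The series holds 1 group of 2 biological replicates, so no conditions were compared. The tissue is whole gastrocnemius, a calf muscle of mainly fast fibres, from male B6CASTF1/J mice aged 25 days, the first generation of a cross of the C57BL/6J and CAST/EiJ strains, with no transgene or treatment in the labels and 2 µg of RNA per library. The labels name separate animals but point to a shared donor record, so the spread between the libraries may be partly technical. The libraries held 1292409 and 1703457 reads, of which 1215785 and 1549606 lay in annotated genes. The 6 markers of muscle fibres were all detected and made up 340018 and 219936 counts per 1000000 gene reads (CPM). The 5 markers of fibroblasts made up 4144 and 729 CPM. Of 4 immune markers, 3 were detected in each library, and the leukocyte marker Ptprc was at 0 in both. In bulk tissue, fewer cells of a type and less RNA per cell cannot be told apart.

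A messenger RNA receives its 3′ end when the nascent transcript is cut downstream of a poly(A) signal, usually AATAAA or ATTAAA in the gene, and a poly(A) tail is added. Cleavage inside an intron or an internal exon gives a shorter RNA without the downstream exons, and skeletal muscle genes such as triadin are known to make short and long forms. The same shape of model can also come from an RNA whose last intron has not been removed, from priming on a stretch of A inside the RNA, or from a broken RNA, and these origins cannot be told apart from a model's exons.

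The sequences below show the kinds of end on which the results turn, as mouse reference bases on mm10 from GENCODE M21 transcripts, 5′ to 3′ in the direction of the gene. For Mlf2 and Srpk3 the whole intron left in the model is shown, with its first and last 2 bases in capitals (chr6:124935446-124935601 and chrX:73778175-73778253, both plus strand). For Son, 40 bases up to the end of the model are in lower case and the 20 bases after it in capitals (chr16:91654660-91654719, plus strand). For Lats1 and the models of 5 and of 10 exons of Trdn, 60 bases of the last exon are shown with the 20 that hold the most A in capitals (chr10:7697502-7697561, chr10:33175769-33175828 and chr10:33233855-33233914, plus strand).
Mlf2 last intron: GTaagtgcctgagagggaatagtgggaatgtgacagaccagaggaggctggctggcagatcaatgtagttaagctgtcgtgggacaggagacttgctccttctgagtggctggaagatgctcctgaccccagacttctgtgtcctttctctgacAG
Srpk3 intron: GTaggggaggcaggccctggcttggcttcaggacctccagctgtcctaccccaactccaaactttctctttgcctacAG
Son end: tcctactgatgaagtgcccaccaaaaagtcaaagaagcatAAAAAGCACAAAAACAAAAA
Lats1 exon 3: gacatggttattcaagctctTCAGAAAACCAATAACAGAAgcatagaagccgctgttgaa
Trdn exon 5: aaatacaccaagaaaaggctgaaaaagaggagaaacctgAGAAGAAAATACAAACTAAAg
Trdn exon 10: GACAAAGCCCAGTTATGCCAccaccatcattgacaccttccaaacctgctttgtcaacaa

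Prefix models were mostly of low abundance and their reads were concentrated in a few genes. The median was 3 reads per model in replicate 1 and 2 reads in replicate 2, and 42 and 41 models had 10 reads or more. All members together held 4058 reads in replicate 1 (0.334% of gene reads, 95% Clopper-Pearson interval 0.324 to 0.344) and 19683 in replicate 2 (1.27%, 1.25 to 1.29). The larger total of replicate 2 came from Aldoa, the muscle aldolase of glycolysis: its model of 9 exons had 16686 reads, 84.8% of the members' reads in that library. Without Aldoa the totals were 4056 reads (0.334%) and 2980 reads (0.192%), so the order of the libraries turned. Among genes with 20 reads or more, 5 of 351 models in replicate 1 and 13 of 305 in replicate 2 held 50% or more of their gene's reads, while 232 and 224 held under 5%. Most member genes had 1 such model (275 and 283 of 322), and the most in 1 gene were 24 for Atp2a1 in replicate 1 and 15 for Trdn in replicate 2.

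The models fell into 2 kinds by the longer model they were incomplete against. For 288 models (66.7%) in replicate 1 and 283 (72.0%) in replicate 2 the longer model, here called the parent, was an annotated transcript. For the other 144 and 110 every parent was itself an unannotated model of the same library, and in 43 and 41 of these the best supported parent had 1 read. The models with unannotated parents held 60.6% and 91.2% of the members' reads. They ended at an annotated transcript end in 77 and 48 cases, and in 37 and 23 cases the other library listed the same intron chain as an unannotated combination of splice sites rather than as a prefix.

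Aldoa is the largest example. Its 16686-read model of replicate 2 ended at base 126795234 of chromosome 7, an annotated transcript end, and its only parent had 1 read. In replicate 1 the same chain had 15470 reads under another class. Pdlim7, which encodes a PDZ and LIM domain protein of the Z-disc, showed the reverse: its 7-exon model was a prefix in replicate 1 with 497 reads, and that chain had 926 reads under another class in replicate 2, where a further prefix model of the gene had 3 reads. Ehbp1l1 (3 models of 193, 39 and 24 reads), Xpnpep1 (62 reads) and Agpat3 (65 reads) were prefix models in replicate 1 alone, and Suds3 (65) and Tmem65 (66) in replicate 2 alone, and in all 5 genes at least 1 of these chains had reads in the other library under another class.

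**Figure D1:**
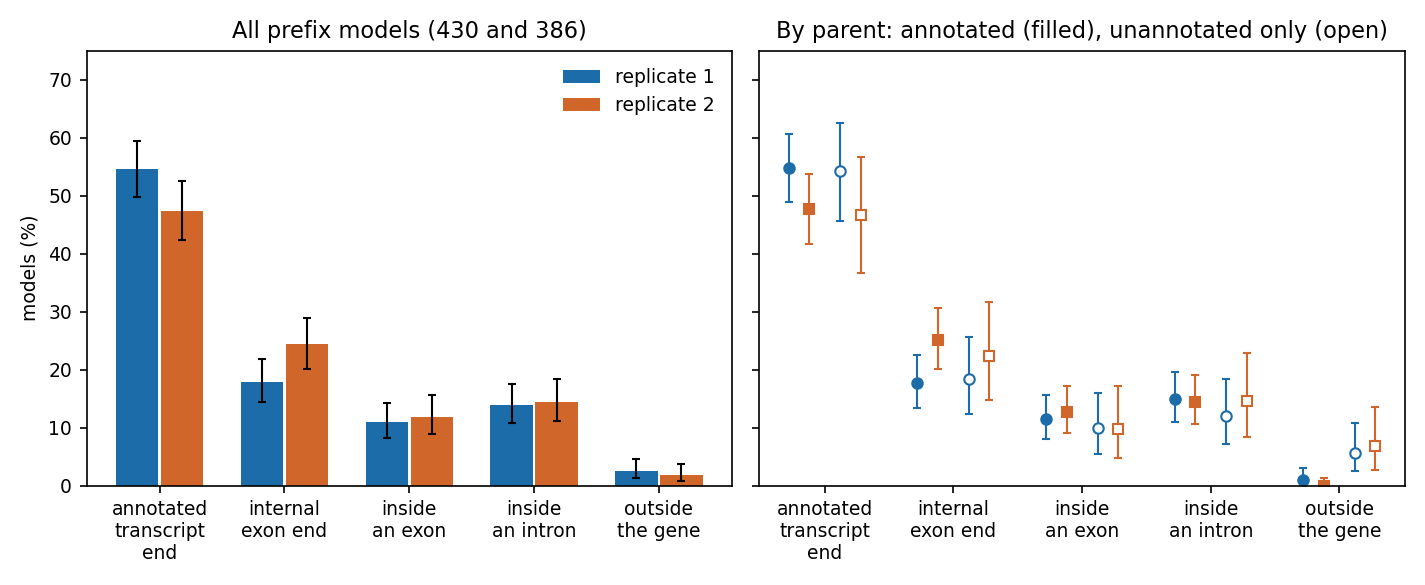
Location of the 3′ end of prefix models relative to annotated models of the gene, as a percentage of models, with 95% Clopper-Pearson intervals that cover counting error only; left, all models in each library, right, models with an annotated parent (filled) and with unannotated parents alone (open), circles for replicate 1 and squares for replicate 2. About the same shares of models ended inside an intron in both libraries (14.0% and 14.5%), and both kinds of parent had ends at each location within the gene.

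The shares of models that ended inside an exon or inside an intron were similar in the 2 libraries, and the shares on annotated edges differed more. Of 430 and 386 models in genes with an annotated model, 235 (54.7%) and 183 (47.4%) ended exactly at the end of some annotated transcript, 77 (17.9%) and 94 (24.4%) exactly at the end of an internal exon, 47 (10.9%) and 46 (11.9%) inside an exon, and 60 (14.0%) and 56 (14.5%) inside an intron. The remaining 11 and 7 ended outside the annotated gene, and 2 and 7 further models lay in genes with no annotated model. The mean intronic share was 14.2% ± 0.392 (SD, n = 2).

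An end on an annotated edge is not a measured cleavage position. In the deposited annotation 72.6% and 71.8% of prefix ends lay exactly on an annotated exon edge. Where ends of suffix models, the deposited class that lacks 5′ exons, were off an edge, 29 of 608 and 42 of 530 lay under 300 bases from one. For prefix models off an edge these were 21 of 118 and 36 of 109. Each model has a single end whatever the ends of its reads, and the sources used here do not give how far an end may be moved to an annotated edge.

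Models with an annotated parent had few exons missing in most cases. Exons missing are the difference in exon number, so a kept intron that joins 2 exons counts as 1 missing. Such a model need not lack exon sequence. In this sense a single exon was missing in 131 of 288 models and 119 of 283. The median was 2 exons in both libraries, and 40 and 36 models lacked 10 or more. They took 2 forms. In 91 models (31.6%) of replicate 1 and 70 (24.7%) of replicate 2 the last exon of the model ran into the last exon of the parent, through 1 or more introns in all but 1 model of replicate 2. The other 197 (68.4%) and 213 (75.3%) stopped before the parent's last exon, with a median of 3 exons missing in each library. Of the models that stopped early and had a coding parent, 172 of 186 (92.5%) and 178 of 191 (93.2%) ended before the coding end of that parent. Where a parent's coding end lies in its last exon, this follows from the selection. How many parents are of that kind was not counted.

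**Figure D2:**
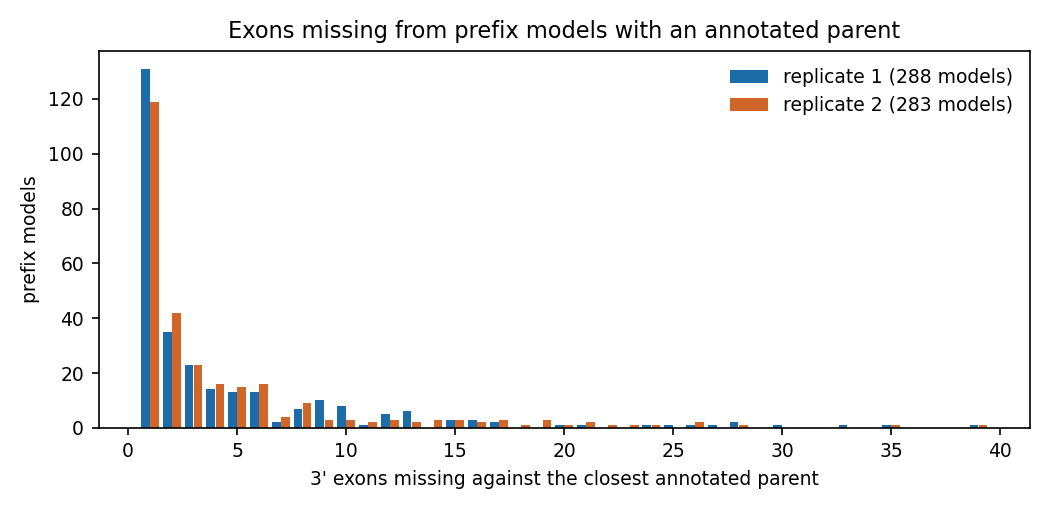
Number of prefix models with an annotated parent (vertical axis) by the number of 3′ exons missing against the closest annotated parent (horizontal axis), for replicate 1 and replicate 2. The tallest bars are at 1 missing exon (131 and 119 models), and the largest number is 39 exons in both libraries. Exons missing are the difference in exon number, so models that kept only the last intron stand at 1.

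The models that kept a 3′ intron kept short ones. They ended at an annotated transcript end in 81 of 91 and 62 of 70 cases, 77 and 61 had kept 1 intron, and 14 and 8 had kept 2 or more. The kept introns had a median length of 258 and 147 bases. The last introns of the 10962 and 9686 spliced annotated transcripts with 2 reads or more had medians of 1089 and 1019 bases. The 2 sets are not alike: models that kept 2 or more introns add internal introns to the first, and 1 Eno3 model of 2 reads in replicate 1 gives 10. The first set also needs a model that runs through the intron into the last exon. Models that stopped inside an intron are left out, so the selection itself favours short introns. The second set is not limited to the same genes. Of 147 different kept introns, with chromosome 18 left out, 49 are contained in an exon of some annotated transcript. All 49 begin with GT and end with AG, as in the Mlf2 and Srpk3 introns printed above. The introns were taken from annotated transcripts, so these bases describe the annotation and not the models.

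Actn3, the α-actinin of fast-fibre Z-discs, had the most reads among kept introns with an annotated parent in replicate 1, and Ppp1r27 in replicate 2. The Actn3 model of 20 exons had 79 reads in replicate 1 and 20 in replicate 2. An intron of 81 bases (chr19:4861504-4861584, minus strand) was left in its last exon, and it ended at the same base, 4861223, in both. These were 0.676% (0.536 to 0.842) and 0.411% (0.251 to 0.634) of the gene's reads, and the intervals overlapped. Ppp1r27, a regulatory subunit of protein phosphatase 1, had 21 and 55 reads with an intron of 282 bases kept, 5.48% and 4.65% of its reads.

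Further short kept introns recurred. Mbd3, a subunit of the NuRD chromatin complex, had an intron of 76 bases kept in 3 models with 24 of 119 reads (20.2%, 13.4 to 28.5) in replicate 1 and in 2 models with 11 of 81 (13.6%, 6.98 to 23.0) in replicate 2. Mlf2 had 11 and 9 reads (3.13% and 2.36%) with its intron of 156 bases kept. Rhbdl1, a rhomboid family member, had 8 and 11 reads (11.3% and 17.7%) with 80 bases kept. In some abundant muscle genes the share was far smaller. Acta1, the skeletal muscle actin, had 8 and 12 such reads of 86730 and 102245, and Ak1, an adenylate kinase, had 8 and 6 of 7119 and 7009. A member needs 2 reads, so a gene with few reads could show only a larger share. The kept intron of Srpk3, a muscle kinase of splicing factors, was seen in replicate 1 alone, with 4 reads in a model that kept 2 introns. In Atp2a1, which encodes the calcium pump of fast fibres, a 21-exon model with unannotated parents ended at an annotated transcript end. It had 434 and 49 reads, 0.236% and 0.134% of 184211 and 36472 gene reads. Kept introns were determined for annotated parents alone, so whether this model kept one is not given here.

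**Figure D3:**
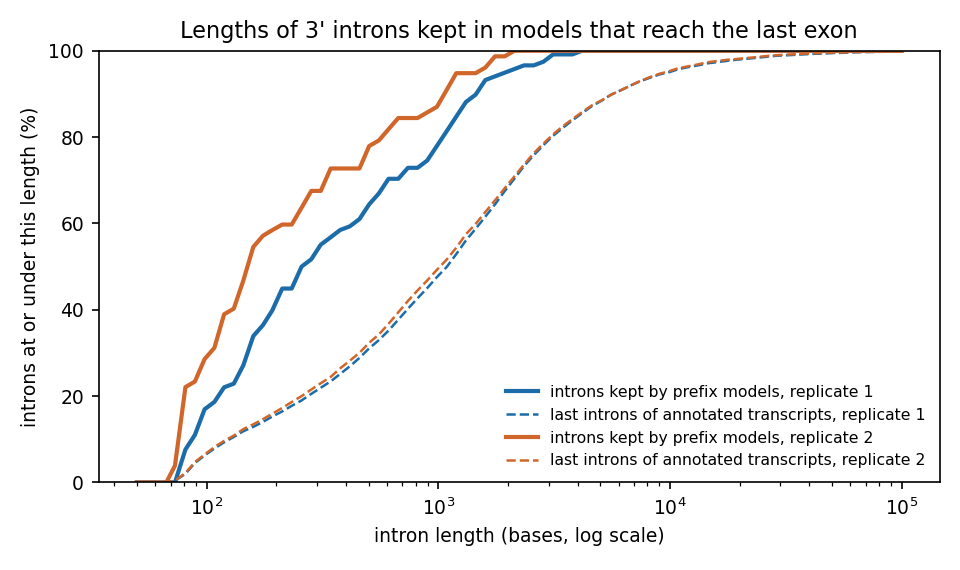
Cumulative percentage of introns at or under a length (log scale, bases) for introns kept by prefix models that reach the last exon of an annotated parent (solid; 118 in replicate 1 and 77 in replicate 2, an intron counted once per model) and for last introns of annotated transcripts with 2 reads or more (dashed). The solid curves lie to the left of the dashed ones, with medians of 258 and 147 bases against 1089 and 1019. The solid curves include internal introns of models that kept 2 or more, whereas the dashed curves hold last introns only.

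Among models that stopped before the last exon of an annotated parent, 77 in replicate 1 and 73 in replicate 2 ended at the end of another annotated transcript, 51 and 71 at an internal exon end, 43 and 41 inside an intron and 26 and 28 inside an exon. Those at an annotated end had the exons of a long transcript and the 3′ end of a shorter one. A protein-coding transcript ended at that base in 30 and 31 cases, and in 39 and 36 cases the transcripts that ended there were all of the retained-intron or processed-transcript type.

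Trdn had the most prefix models over both libraries after Atp2a1 and the most reads of a model with an annotated parent. It encodes triadin, a membrane protein that anchors the calcium release complex of the sarcoplasmic reticulum. Its 10-exon model, with 313 reads in replicate 1 against 470 in replicate 2, ended at base 33233926 of chromosome 10, which is both the end of exon 10 of the 38-exon parent and the end of an annotated protein-coding transcript. It lacked 28 exons and held 27.5% (24.9 to 30.1) of the gene's 1140 reads and 14.2% (13.0 to 15.4) of 3314. The share was higher in replicate 1 and the intervals did not overlap. Besides it, Trdn had 9 models in replicate 1 and 10 in replicate 2 that ended at an internal exon end, with 28 and 42 reads in all. A 21-exon Trdn model ended inside an intron with 110 reads in replicate 1 and 8 in replicate 2, at ends 92 bases apart.

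**Figure D4:**
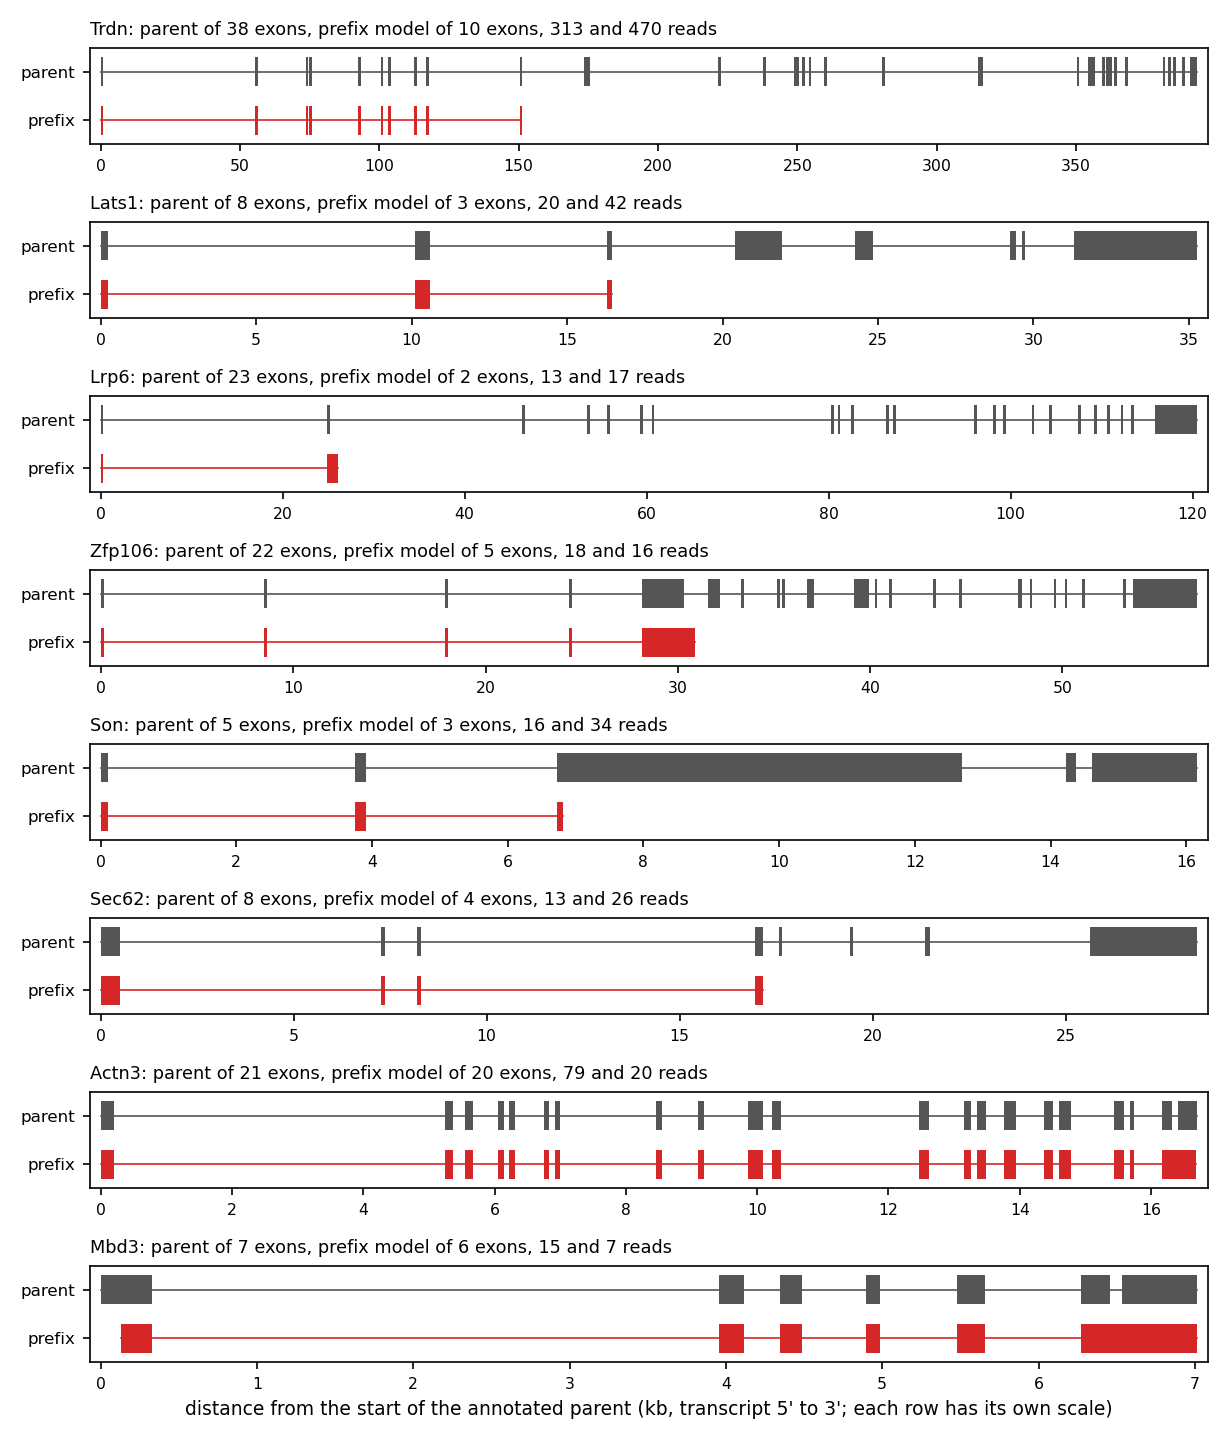
Exons (boxes) of 8 annotated parents (grey) and of 1 prefix model of each gene (red), by distance in kb from the start of the parent, with reads in replicates 1 and 2 in the titles. Positions are to scale, and small exons are drawn wider than they are, at a minimum width. The Trdn model stops after 10 of 38 exons and the Son model early in exon 3, whereas the Actn3 and Mbd3 models reach the end of the gene with the last intron kept.

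In some genes with few reads the prefix model was the main product seen. Lats1, a kinase of the Hippo pathway, had 20 of 23 reads (87.0%, 66.4 to 97.2) and 42 of 46 (91.3%, 79.2 to 97.6) on a 3-exon model that ended at the same base, the end of exon 3, with 5 exons missing. Slc25a23, a mitochondrial carrier, had 18 of 25 and 12 of 22 reads on a 9-exon model that ended at another annotated end. Sik3, a salt-inducible kinase, had 18 of 29 and 8 of 24 reads on a 14-exon model with 10 exons missing. In Lats1 and Slc25a23 the prefix model held over 50% of the reads in both libraries, and in Sik3 in replicate 1.

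Further early ends recurred at the same base with 50% of the gene's reads or fewer. Lrp6, a Wnt co-receptor, had 13 of 33 and 17 of 34 reads on a 2-exon model that lacked 21 exons and ended at the end of an annotated retained-intron transcript. Brap, a ubiquitin ligase of Ras signalling, had 13 of 66 and 24 of 71 reads on a 4-exon model with 8 exons missing. Sec62, a subunit of the protein translocation machinery of the endoplasmic reticulum, had 13 of 70 and 26 of 68 reads on a 4-exon model that ended with exon 4. Eif5b, a translation initiation factor, had 6 of 31 and 6 of 18 reads on a 5-exon model with 17 exons missing.

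Of the recurring ends with the most missing exons, the Trdn model described above, with 28 missing, had the most reads, and the others named here had 15 reads or fewer in a library. Ktn1, the kinesin receptor kinectin, had 2 reads in each library on a 2-exon model that lacked 39 exons. Titin (Ttn), the elastic scaffold of the sarcomere, had 6 reads in the first library and 1 in the other on a 12-exon model with 33 exons missing. Cacna2d1, an accessory subunit of the voltage-gated calcium channel, had 2 reads and 1 read with 30 exons missing, at ends 4 bases apart inside an intron. Dgkd, a diacylglycerol kinase, had 15 reads in replicate 2 and 1 in replicate 1 on a 4-exon model with 26 missing.

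Ends inside introns lay at widely varying distances past the last shared splice donor. With an annotated parent there were 43 such models in replicate 1 and 41 in replicate 2, with a median of 1266 bases (65 to 4721) and 597 bases (4 to 3685) from the donor to the end. Over all intronic ends, 3 of 60 and 3 of 56 lay in an exon of another gene on the same strand, and 2 and 5 in one on the opposite strand. The sources used here do not say whether strand was used in assigning reads, so sense and antisense reads cannot be told apart at the latter.

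The intronic end with the most reads was in Atp2a1. An 8-exon model, with unannotated parents alone, had a last exon of 1956 bases that ended at base 126454588 of chromosome 7 in both libraries, with 410 reads in replicate 1 and 301 in replicate 2. These were 0.223% (0.202 to 0.245) and 0.825% (0.735 to 0.924) of the gene's reads, so the reads were of similar number while the gene had 184211 and 36472. The share was higher in replicate 2, and the intervals did not overlap.

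Zfp106, a zinc finger protein that binds RNA and is needed to maintain motor neurons and muscle, had 18 and 16 reads on a 5-exon model that ran 607 bases into an intron, with 17 exons missing. They were 4.74% and 1.98% of the gene's reads. That base also lies in an exon of Gm26899 on the opposite strand. Fam120aos, a noncoding gene, had 13 of 13 and 27 of 28 reads on a 2-exon model that ended in the intron, at ends 4 bases apart. Luc7l2, a factor associated with the U1 snRNP, had 10 of 33 and 6 of 54 reads on a 9-exon model that ran 3683 and 3685 bases past the donor.

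Smaller intronic ends recurred in genes of muscle energy and contraction. Ckmt2, the mitochondrial creatine kinase of muscle, had 3 and 8 reads at the same base, 65 bases past the donor. Ckm, the cytosolic muscle creatine kinase, had 6 of 83546 and 2 of 107548 gene reads at the same base, and the base also lies in an exon of A930016O22Rik on the opposite strand. Tpm1, a tropomyosin, had 4 and 6 reads at ends 46 bases apart. Asph, which gives rise to junctin of the calcium release complex, had 3 and 3 reads at ends 3 bases apart. Rmdn1, a microtubule-associated protein, had 4 and 4 reads, and Apobec2, a muscle protein of the cytidine deaminase family, 5 of 951 and 3 of 7656. Of these genes Apobec2 passed the test between libraries described below (adjusted p = 0.0374 by Fisher's exact test), with shares of 0.526% and 0.0392%. With chains classed by either library its shares were the same and its adjusted p was 0.0547 (exact test).

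Poly(A) signals before ends inside exons were at lower shares than before the ends of other classes. Not all of these prefix ends are early ends. Some, such as those of Ccdc47, lie in the last exon of an annotated parent after a kept intron. A motif AATAAA or ATTAAA on the sense strand, within the 50 bases up to the end, was present at 14 of 46 prefix ends with sequence in replicate 1 (30.4%, 17.7 to 45.8) and 9 of 45 in replicate 2 (20.0%, 9.58 to 34.6). At ends of suffix models off an exon edge it was present at 286 of 479 (59.7%) and 289 of 467 (61.9%), and at the ends of annotated spliced transcripts with reads at 75.3% and 74.2%. All windows of that length in annotated transcripts of the member genes held it in 3.73% and 4.06%. The prefix share thus lay between all windows and the other ends in both libraries, and with 2 libraries no test over libraries was made. The match is a description of the reference sequence and not evidence of use.

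Stretches rich in A followed some of the same ends. At least 12 A in the 20 bases after the end stood at 6 of 46 (13.0%) and 4 of 45 (8.89%) exonic prefix ends, against 16.2% and 8.83% of the suffix ends and 1.17% and 1.31% of all windows of 20 bases in those transcripts. Ddit4l, an inhibitor of mTOR signalling, had in replicate 1 a model that kept an intron of 1692 bases and ended in its parent's last exon. Its 17 reads were at an exonic end followed by 17 A of 20. Son, a protein of nuclear speckles that supports splicing, showed such an end in both libraries: its 3-exon model had 16 of 44 reads (36.4%) and 34 of 49 (69.4%), ended at base 91654699 of chromosome 16 in both libraries, 89 bases into exon 3 of the parent, and the next 20 bases hold 16 A, as printed above. Mef2c, a transcription factor of muscle, had 5 and 7 reads on a 3-exon model that ended at the same base, with 9 A in the next 20.

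For models that ended on the end of an internal exon the next bases lie in an intron and were not analysed here, so the exon itself was searched. Of the exons at whose end an annotated-parent model stopped, 20 of 47 in replicate 1 (42.6%, 28.3 to 57.8) and 21 of 70 in replicate 2 (30.0%, 19.6 to 42.1) held 12 A or more within 20 bases of their last 300. Of the other internal exons of the same parents, 99 of 509 (19.4%, 16.1 to 23.2) and 101 of 499 (20.2%, 16.8 to 24.0) did. The intervals were apart in replicate 1 and overlapped in replicate 2. Exons with a model end were somewhat longer (median 146 and 145 bases against 123 and 124), so the shares were also compared by exon length. Among exons of 100 to 199 bases they were 12 of 23 against 49 of 276 in replicate 1 and 10 of 28 against 55 of 286 in replicate 2. Among exons of 200 bases or more they were 6 of 13 against 12 of 63 and 5 of 19 (26.3%) against 12 of 54 (22.2%). Among exons of 20 to 99 bases they were 2 of 11 (18.2%) against 38 of 170 (22.4%), the reverse order, and 6 of 23 (26.1%) against 34 of 159 (21.4%). The part that A content has in where these models end was not tested.

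The A content varied among these exons. Exon 5 of Eif5b holds 16 A of 20. Exon 5 of an 8-exon Trdn transcript, where 5-exon models with 6 and 8 reads stopped, holds 14. Exon 3 of Lats1 holds 12. Exon 10 of Trdn, with far more reads, holds at most 7, and it is the one that coincides with an annotated transcript end.

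Of all prefix models, the end of 225 of 430 (52.3%, 47.5 to 57.1) in replicate 1 and 186 of 386 (48.2%, 43.1 to 53.3) in replicate 2 lay within 50 bases of the end of some prefix model of the same gene, with 1 read or more, in the other library. Of these, 192 and 155 were at the same base. Many deposited ends sit on an edge, so ends off an edge and inside the gene were also counted alone: 44 of 107 (41.1%) and 34 of 102 (33.3%) recurred, of which 25 and 21 at the same base. By location, 29 of 60 and 19 of 56 intronic ends recurred, 15 of 47 and 15 of 46 ends inside exons, and 40 of 77 and 40 of 94 internal exon ends.

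Counting whole intron chains, 692 different chains were prefix models in either library and 133 in both, 30.8% of those of replicate 1 and 33.8% of those of replicate 2. Their ends agreed to the base for 94 and within 50 bases for 114. Among shared models with most reads, Lsm6, a protein of the U6 snRNP, had a 4-exon model that ended at an annotated end. It held 33 of 117 (28.2%) and 64 of 233 (27.5%) reads, with overlapping intervals, and in replicate 1 its parents were all unannotated. Nexn, the Z-disc protein nexilin, had 46 and 39 reads on a 12-exon model, 9.35% (6.93 to 12.3) and 2.49% (1.77 to 3.38) of the gene's reads. Hrc, a calcium-binding protein of the sarcoplasmic reticulum, was a member in replicate 2 alone, with 76 of 11792 reads.

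**Figure D5:**
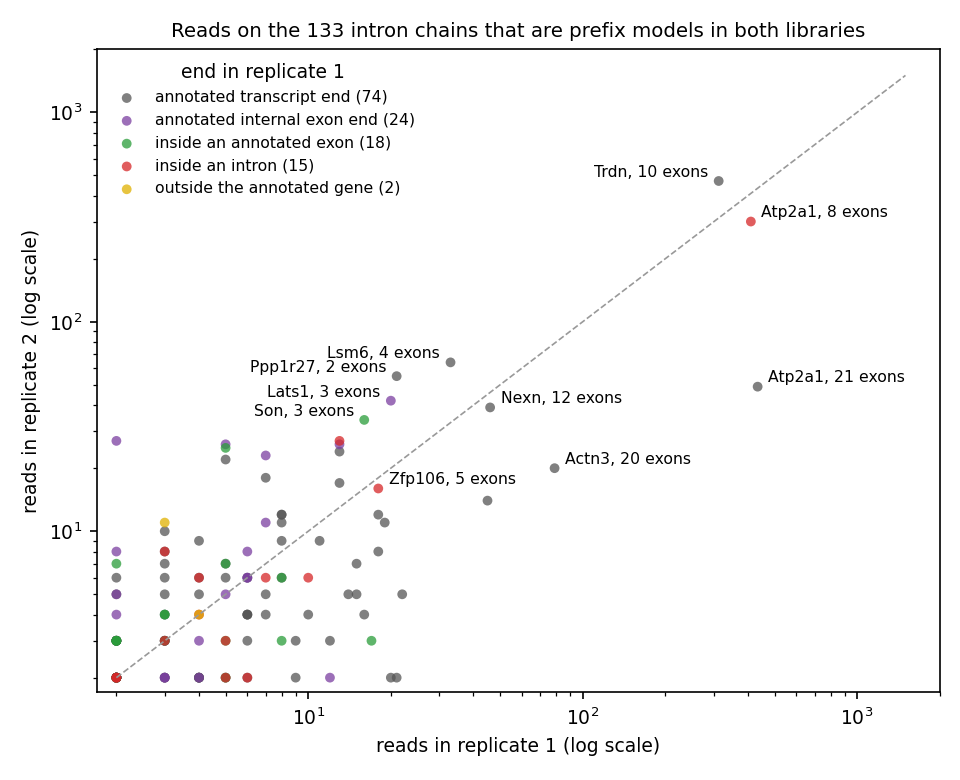
Reads in replicate 1 (horizontal, log scale) and replicate 2 (vertical, log scale) for the 133 intron chains that are prefix models in both libraries, coloured by the location of the end in replicate 1; the dashed line marks equal reads. Trdn (313 and 470) and the 8-exon Atp2a1 model (410 and 301) lie near the line at high reads. The 21-exon Atp2a1 model (434 and 49) and Actn3 (79 and 20) lie below it. Reads are not adjusted for library or gene depth, and as shares of gene reads the Trdn and 8-exon Atp2a1 models differed between the libraries.

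The share of a gene's reads on prefix models was compared between the libraries for 1037 genes with 20 reads or more in each and at least 1 prefix read, with Fisher's exact test per gene (two-sided, Benjamini-Hochberg adjusted over these genes). At an adjusted p under 0.05, 21 genes (2.03%) differed, 14 with the higher share in replicate 1 (1.35%) and 7 in replicate 2 (0.675%), and 57 had an unadjusted p under 0.05. Of the 517 member genes 318 entered the test. Prefix reads were counted whatever the parent, annotated or unannotated. The test compares reads of these 2 libraries and not conditions, and it covers counting error only. A gene could enter through prefix reads of 1 library alone. The class also chose the members, so the calls describe these 2 libraries and test nothing about the members. When a chain classed as prefix in either library counted as prefix in both, 12 of 1038 genes (1.16%) differed, 10 with the higher share in replicate 1 (0.963%) and 2 in replicate 2 (0.193%), and 11 genes were called in both ways.

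Several of the largest differences came with a change of class name. By each library's own class, Aldoa had 0.0166% of its reads on prefix models in replicate 1 and 78.8% in replicate 2. With the class of either library the shares were 85.8% and 78.8%, so the direction turned, with adjusted p = 5.47e-71 by the exact test. For Pdlim7 they went from 86.3% and 0.345% to 86.3% and 80.3% (adjusted p = 0.0992, exact test), and for Tmem65 from 0 of 235 reads and 61.7% to 72.8% and 61.7% (adjusted p = 0.939, exact test). Suds3, Agpat3, Xpnpep1, Prr33 and Clip4 also lost the call with a changed share. Apobec2, AC149090.1 and Hsp90ab1 had the same shares under both namings, and their adjusted p moved past 0.05 (0.0547, 0.0612 and 0.0629, exact test). The share of 0 that Suds3 had in replicate 1 became 74% with the class of either library, and that of Agpat3 in replicate 2 became 23.9%.

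Differences that stayed past the threshold under both namings included muscle genes. Trdn had 41.6% (38.7 to 44.5) of its reads on prefix models in replicate 1 and 16.4% (15.1 to 17.7) in replicate 2 (adjusted p = 1.57e-60, exact test). Nexn had 13.0% and 3.76% (adjusted p = 3.59e-10, exact test). Atp2a1 differed in the other direction with a small size, 0.512% and 1.03% (adjusted p = 2.23e-25, exact test). Zfp106 had 9.47% and 2.48% (adjusted p = 3.68e-05, exact test). Dgkd had 4.84% and 51.7% (3 of 62 and 15 of 29 reads, adjusted p = 4.81e-05, exact test), Cinp, a DNA replication factor, 35.5% and 0 of 41 reads (2.01e-04 by the same test), and Phf10, a chromatin remodelling subunit, 40.9% and 8.06% (9.08e-04). Pnisr had 23.3% and 0.279% and Ddit4l 1.48% and 0.197%, both called under each naming. Ehbp1l1 remained called with the higher share in replicate 1, at 45.4% and 15.9% with the class of either library.

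Member genes were 517 of the 15622 genes with a read in either library (3.31%), and the lists below differ in depth, so their counts are descriptions and were not tested against each other or that share. None of 25 cleavage and polyadenylation factors was a member gene, all 25 were detected at 413 and 331 CPM in sum, and Cpsf2, Cstf2, Clp1 and Papola each had a single prefix read in replicate 2. Of 10 genes known for intronic polyadenylation, Ighm, the immunoglobulin μ heavy chain gene, was a member, with 2 models and 5 reads in replicate 1. Of 32 sarcomere genes, 21 were members in either library, at 230749 and 258224 CPM in sum, with 32 models and 667 reads in replicate 1 and 26 models and 123 reads in replicate 2. Pdlim7, whose class name differed between the libraries, had 497 and 3 of these, and without it the reads were 170 and 120. Myh4, the myosin heavy chain of the fastest fibres, had 8 and 3 models with 25 and 7 reads of 29017 and 15234, all ending on or inside exons. Of 12 calcium-handling genes 7 were members, with 1396 and 973 reads, most of them on Atp2a1 (930 and 364) and Trdn (456 and 528).

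The remaining lists held fewer. Of 14 giant and membrane proteins 3 were members: Ttn (5 models in replicate 1), Neb, the thin-filament ruler nebulin (6 and 5 models), and Xirp1 (2 models in replicate 1). Of 17 genes of glycolysis, glycogen and creatine 7 were members, with 24 and 16729 reads, of which Aldoa had 2 and 16703. Among the others, 1 of 18 nuclear genes of mitochondrial metabolism (Uqcrc1, 4 reads) and 1 of 12 extracellular matrix genes (Fn1, 2 reads) were members, both in replicate 1 alone. Of 16 splicing regulators 5 were members, with 23 and 73 reads: Son, the serine-arginine factor Srsf2 (5 and 4 reads), Hnrnpa2b1 (2 and 29), Hnrnpdl (3 reads in replicate 2) and Rbm39 (3 reads in replicate 2). In the test, where 2.03% of all genes were called, 1 of 28 sarcomere genes tested was called (Pdlim7, higher in replicate 1, not called with the class of either library), 2 of 10 calcium-handling genes (Trdn higher in replicate 1, Atp2a1 in replicate 2), 1 of 11 of the glycolysis list (Aldoa, whose direction turned with the class) and none of 7 splicing regulators. The median difference of the sarcomere list was 0.00210 percentage points, replicate 2 minus replicate 1, and that of all genes tested -0.00692.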

How the data were processed

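Long-read RNA libraries of 2 mouse gastrocnemius samples (1 group) were analysed. Per the text deposited with the files, the authors aligned reads to mm10 and assigned them to GENCODE M21 transcripts or to new models, each library on its own; attribute names in the deposited annotation are those of TALON. The sources used here do not give the aligner, filters, strand setting or the rule that sets a model's end. The deposited values are whole read counts per transcript model, not normalised; other deposited columns give exons, lengths and coordinates (counted from 1), per the file headers. Models were matched between libraries by chromosome, strand and intron chain.

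From these, the parent of a prefix model was any model of the gene that continues its intron chain. Exons missing were the difference in exon number from the annotated parent with fewest exons. A 3′ end was placed by exact comparison with annotated exons; recurrence allowed 50 bases. CPM is reads per 1000000 gene reads. Shares carry exact 95% Clopper-Pearson intervals, which, like Fisher's test (scipy 1.17.1), cover counting error only, since reads may not be independent molecules; depth per library is given in the report. Sequences came from the M21 transcript file. The planned checks of genomic sequence around all ends needed a genome that was not used here, so ends inside exons were searched instead, with values chosen after the data were seen. The methods were tested on simulated data.

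Genes named are those with most member reads, the recurring intronic ends, the most missing exons, the largest differences per direction and up to 4 per list; some that meet this rule, and 1 sequence, are not reported here. Lats1, Son, Sec62, Eif5b, Mef2c, Lrp6, Brap, Sik3, Slc25a23, Mbd3, Mlf2, Rhbdl1, Srpk3, Phf10, Ddit4l, Pnisr, Rbm39 and others beyond it were chosen after their values were seen. Members, lists and tests were chosen with earlier results of these data known. Alternatives tried were read minimums, parents, end definitions, windows, gene minimums, the class of a chain and leaving out each library.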

Additional observations from a re-analysis of the deposited data

How the results depend on the processing

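With 1 group of 2 libraries, no setting tests a condition, and most members have under 10 reads. The mean number of prefix models per library (412.5) was 1771.5 at 1 read or more, 101.5 at 5 and 41.5 at 10, and ranged from 393 to 432 with either library left out. The mean share of ends inside an intron (14.2%) ranged from 14.0% to 14.5% with either library left out. It was 18.6% at 1 read or more, 10.9% at 5, 12.1% at 10 and 10.2% weighted by reads; among annotated parents it was 14.7% and among models that stop before the last exon 20.5%, both added after seeing the data. Counting every end past the last shared donor as intronic gave 68.4%, and 66.6% at 50 bases past it, by construction since models that keep an intron to the gene's end then count. The mean recurrence (50.3%) ranged from 48.2% to 52.3% with a library left out. It was 35.0% with 2 reads required in the other library, 58.7% for the same intron chain in any class and 37.2% for ends off an annotated edge, the last added after seeing the data; windows of 10, 25 and 100 bases moved it by less than the spread between libraries. The median number of exons missing (2) was 2.5 against the annotated parent with most reads, 2.75 against the parent with most exons missing, 1.5 and 1 at 5 and 10 reads, and 3 for models that stop before the last exon (added); it was 2 with either library left out. The number of genes that differed between the libraries (21) was 12 when a chain named prefix in either library counted in both and 18 to 25 under the other settings. That test needs both libraries, so none could be left out. At ends inside exons, the mean share with an A-rich stretch (11.0%) was 6.59% at 15 or more A and 16.7% for models of 5 reads or more. It ranged from 8.89% to 13.0% with either library left out. The mean share with a poly(A) signal (25.2%) was 23.0% to 32.5% under other settings of motif, window and reads. With either library left out it ranged from 20.0% to 30.4%. All these settings were chosen after seeing the data. The checks of poly(A) signals and A-rich stretches at all ends were not run, for want of a genome of the build. No paired analysis was possible because there is 1 group.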
